A study of Mus musculus with 12 samples.

Results

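Jejunum from mice in which Fgfr1op, a gene of the centrosome now named Cep43, had been knocked out (KO) after tamoxifen was compared between day 9 and day 6 on the post-tamoxifen time scale of the labels. The comparison was chosen by the sample titles and used 4 of the 12 arrays of the study, 2 KO mice at day 9 and 2 KO mice at day 6. The same interval in wild-type (WT) mice, 2 at day 9 and 2 at day 6, served as its background. Per the labels' protocols, tamoxifen dissolved in corn oil was injected into the abdomen at 75 mg/kg on each of 5 consecutive days, a protocol that stands with the samples of both genotypes. All RNA was made from whole jejunum, and each value therefore sums over epithelial, muscle, stromal and immune cells. In such bulk samples fewer cells of a type and less RNA per cell cannot be told apart. The labels name neither the promoter of the recombinase nor the exons removed, and they leave unsaid which transgene, if any, the WT mice carried. Each mouse was measured at 1 time point, so a change over days is a difference between mice, and nothing in the labels says that the mice of different days were littermates.

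The jejunum is the part of the small intestine where most sugar, amino acids and fat are absorbed. Stem cells at the base of the crypts divide and feed a conveyor of cells that stop dividing, move onto the villi and are shed within days; most become absorptive enterocytes, whose brush border carries digestive enzymes and nutrient transporters. The enterocyte programme is maintained by transcription factors such as HNF4, GATA4 and CDX2. When the epithelium is injured, surviving cells can take on a regenerative state that resembles the fetal gut, marked by annexins, Clu, Il1rn and other genes that the resting epithelium hardly uses. Cep43 is a protein of the centriole, the organelle that organises microtubules and serves as the base of cilia.

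Values are log2 signals of the Affymetrix Mouse Gene 1.0 ST array, so a difference of 1 is a doubling. Across the 19938 genes with a probe set of their own, the correlation between the 2 mice of a group was 0.9917 to 0.9969. A gene was called when limma's p-value, adjusted by the Benjamini-Hochberg method over these genes, was under 0.05; differences are given as day 9 minus day 6 with the standard error (SE), always over 2 mice a group. Folds are left out for genes with a group mean under 5.33, the 95th percentile of 1015 odorant receptor genes, which are not thought to be active in gut. All 11 measured jejunum markers lay above that limit in the 4 groups. Colon, stomach, pancreas and fat markers had group means of at most 6.87, as for Mettl7b in WT. Ileal and duodenal markers reached 11.58 and 10.76. The ileal Fabp6 varied by mouse, with 7.36 and 5.63 in KO at day 9, against 6.44 and 5.87 at day 6. In WT it had 6.02 and 7.23 at day 9, against 5.79 and 9.02 at day 6. The ileal Slc51a ran from 10.19 to 10.51 on the same arrays. Whether the sampled stretch of gut differed between mice was not tested. Albumin, Alb, which defines liver, lay at 4.95 in KO at day 9 and 5.01 at day 6.

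The arrays differed in smooth muscle. The mean of 26 smooth muscle genes was 8.75 and 7.87 in KO at day 9, against 7.70 and 7.57 in KO at day 6, and it was 7.81 and 8.38 in WT at day 9, against 8.96 and 8.35 in WT at day 6. The high KO array of day 9 was replicate 1. All 8 defining muscle markers lay above the background limit in each group. A lymphoid follicle signature also varied by mouse: Ms4a1, the B cell antigen CD20, had log2 signals of 6.52 and 3.95 in KO at day 9, against 3.74 and 6.01 at day 6, and in WT of 4.11 and 3.80 at day 9, against 3.48 and 7.74 at day 6. With the smooth muscle mean as a covariate 2105 genes were called in KO in place of 4890, and 2315 were without KO day 9 replicate 1. The counts without KO day 6 replicate 1 or 2 were 2378 and 2530. Of the 328 called genes chosen by rule or named in the text, 92 lost their KO call with the covariate. Where single calls are said below to be lost without certain arrays, losses with the covariate are mostly not listed. The part of muscle in the results below was not tested beyond these refits.

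Cep43 itself, the targeted gene, did not pass the test between the days in KO. Its log2 signal was 6.60 and 6.63 in KO at day 9, against 6.69 and 6.56 at day 6 (log2 difference -0.01, SE 0.11, adjusted p = 0.95). It was 6.96 and 7.05 in WT at day 9, against 6.97 and 6.90 in WT at day 6, so the KO arrays lay under the WT arrays at both days. Which part of the gene the probe set covers relative to the deletion is not known here.

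Between days 6 and 9 the KO jejunum changed across a large share of its genes. Of 19938 genes tested, 4890 were called (24.5%). Of these 2001 were higher at day 9 (10.0% of all genes) and 2889 were lower (14.5%). These 2 shares are the background for the list counts below. At 1.5-fold or more, 636 of the called genes were higher (3.19%) and 1440 lower (7.22%), and 27 and 77 passed 4-fold. In WT jejunum 12 genes were called over the same days (0.0602%), 8 higher (0.0401%) and 4 lower (0.0201%), all of them by 1.5-fold or more, and 1891 had an unadjusted p under 0.05, against 7358 in KO. From the 5th to the 95th percentile, log2 changes ran from -0.71 to 0.50 in KO and from -0.24 to 0.29 in WT. The difference between the 2 day changes, which uses the same KO arrays, was called for 2534 genes (12.7%), 702 higher (3.52%) and 1832 lower (9.19%) in KO. At 1.5-fold or more these were 523 (2.62%) and 1534 (7.69%). The share of higher calls was 27.7%, and with quantile normalisation 974 of 2250 were higher, or 43.3%. Of the calls in KO, 40.9% were higher with the deposited values, 50.6% after quantile normalisation and 36.5% with arrays centred on their medians. Falls were thus in excess with the deposited and the centred values, but not after quantile normalisation. Without regard to calls, both day 9 arrays lay above both day 6 arrays for 35.6% of genes in KO and 26.9% in WT, and below them for 29.5% in KO and 16.7% in WT. The plot of KO against WT changes shows a cloud stretched along the KO axis.

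**Figure D1:**
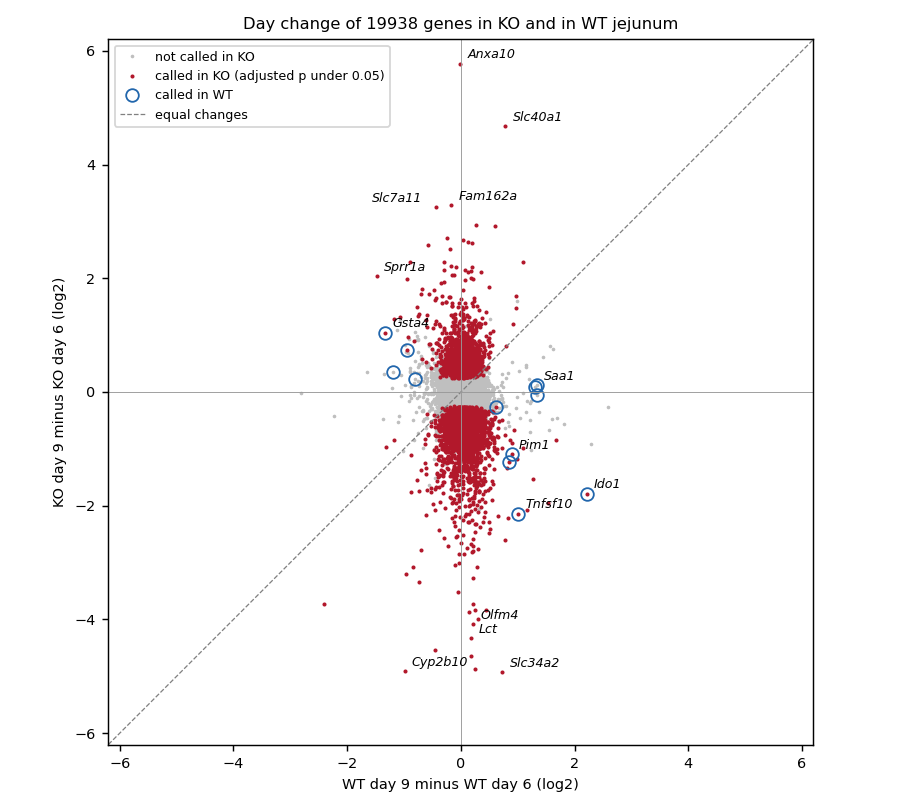
Change between days 6 and 9 of each of 19938 genes, in KO (vertical axis) and in WT (horizontal axis), both as day 9 minus day 6 on the log2 scale; red points are the 4890 genes called in KO and blue rings the 12 called in WT. The cloud extends from Slc34a2 at -4.93 to Anxa10 at 5.77 along the KO axis, while 55 genes reach an absolute WT change of 1 or more, against 645 in KO.

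The genes that rose most were led by Anxa10, an annexin of the stomach lining, a family that binds membranes in the presence of calcium. Anxa10 had log2 signals of 9.85 and 10.29 in KO at day 9, against 4.36 and 4.25 at day 6 (log2 difference 5.77, SE 0.15, adjusted p = 7.14e-09), and 4.23 and 4.34 in WT at day 9 with 4.42 and 4.17 at day 6. Both KO arrays of day 9 stood alone, since every other array of days 9 and 6 lay under the background limit. Slc40a1, ferroportin, the exporter that passes iron from enterocytes to blood, had 10.52 and 11.01 in KO at day 9, against 6.06 and 6.13 at day 6, a 25.4-fold rise (log2 difference 4.67, SE 0.15, adjusted p = 1.85e-08). Fam162a, a mitochondrial protein induced by low oxygen, had 11.52 and 11.58 in KO at day 9, against 8.07 and 8.46 at day 6, a 9.73-fold rise (SE 0.15 on the log2 scale). Slc7a11, which imports cystine for glutathione synthesis, had 9.10 and 9.28 in KO at day 9, against 5.87 and 6.00 at day 6, a 9.52-fold rise (SE 0.29). In each of these genes the groups were far apart relative to the spread between mice.

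Tat, tyrosine aminotransferase, had 8.42 and 8.97 in KO at day 9, against 5.57 and 5.93 at day 6 (7.69-fold higher). Saa3, an acute-phase serum amyloid A, had 8.89 and 8.13 in KO at day 9, against 5.80 and 5.37 at day 6 (7.59-fold higher), with a wider spread between the day 9 mice than Il1rn. Il1rn, the antagonist of the interleukin 1 receptor, had 8.77 and 9.02 in KO at day 9, against 6.27 and 6.24 at day 6 (6.25-fold higher). Bnip3, a receptor for mitochondrial autophagy that low oxygen induces, had 9.32 and 9.22 in KO at day 9, against 6.54 and 6.76 at day 6 (6.14-fold higher). Niban1, a stress-induced protein of translation control, had 8.90 and 9.14 in KO at day 9, against 6.39 and 6.46 at day 6 (6.04-fold higher), and Capg, which caps actin filaments, had 9.81 and 9.72 in KO at day 9, against 7.16 and 7.33 at day 6 (5.73-fold higher). Wfdc18, a secreted protein of the whey acidic protein family, had 7.48 and 7.85 in KO at day 9, against 5.04 and 4.95 at day 6 (log2 difference 2.67, SE 0.35, adjusted p = 4.17e-04), with both day 6 arrays under the background limit. Grem1, a secreted BMP antagonist of the stroma, had 10.00 and 8.55 in KO at day 9, against 7.22 and 6.74 at day 6 (log2 difference 2.29, SE 0.47, adjusted p = 0.00536). The Grem1 arrays of day 9 were more than 1 log2 unit apart, and without KO day 9 replicate 1 its difference was 1.57 and no longer called.

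The largest falls were digestive, transport and detoxifying genes of the enterocyte, with Olfm4 of the crypt among them. Slc34a2, a sodium phosphate cotransporter of the brush border, had 5.05 and 4.87 in KO at day 9, against 9.63 and 10.17 at day 6 (log2 difference -4.93, SE 0.20, adjusted p = 1.43e-07). Its day 9 arrays lay under the background limit. Cyp2b10, a cytochrome P450 that metabolises drugs, had 5.88 and 6.08 in KO at day 9, against 11.03 and 10.75 at day 6, a 30.1-fold fall (log2 difference -4.91, SE 0.26, adjusted p = 9.05e-07). Enpp7, the intestinal sphingomyelinase, had 7.35 and 7.54 in KO at day 9, against 12.32 and 12.33 at day 6, a 29.4-fold fall (SE 0.26). Ugt2a3, a glucuronosyltransferase, had 5.05 and 4.73 in KO at day 9, against 9.72 and 9.35 at day 6 (log2 difference -4.65, SE 0.32, adjusted p = 4.79e-06), again with the day 9 arrays under the limit. Slc23a1, the sodium-dependent importer of vitamin C, had 6.01 and 6.14 in KO at day 9, against 10.71 and 10.50 at day 6, a 23.1-fold fall. Lct, the lactase of the brush border, had 6.43 and 6.32 in KO at day 9, against 10.74 and 10.67 at day 6, a 20.1-fold fall (log2 difference -4.33, SE 0.19, adjusted p = 1.82e-07). Day 9 and day 6 arrays were separated by over 4 log2 units in each of these 6 genes.

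Olfm4, a secreted protein of crypt base cells, had 7.82 and 7.30 in KO at day 9, against 11.57 and 11.71 at day 6, a 16.9-fold fall (log2 difference -4.08, SE 0.16, adjusted p = 1.04e-07). Aspa, aspartoacylase, which splits N-acetylaspartate, had 6.07 and 6.14 in KO at day 9, against 10.08 and 10.13 at day 6 (16-fold lower). Slc5a12, a sodium-coupled lactate transporter, had 7.03 and 7.82 in KO at day 9, against 11.14 and 11.45 at day 6 (14.6-fold lower), the largest spread between day 9 mice among these falls. Adh6a, an alcohol dehydrogenase, had 6.29 and 6.60 in KO at day 9, against 10.12 and 10.45 at day 6 (14.3-fold lower). Susd2, a membrane protein with a sushi domain, had 7.13 and 6.93 in KO at day 9, against 10.86 and 10.87 at day 6 (14.3-fold lower), and Xpnpep2, a membrane aminopeptidase, had 6.21 and 6.08 in KO at day 9, against 9.78 and 9.97 at day 6 (13.3-fold lower). In WT, none of these 12 genes or of the 12 rises was called between the days. Of the 24 genes, 23 kept their call under all 21 refits, which left out each array in turn or changed the scaling, filter, prior or covariates, and Grem1 did not.

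**Figure D2:**
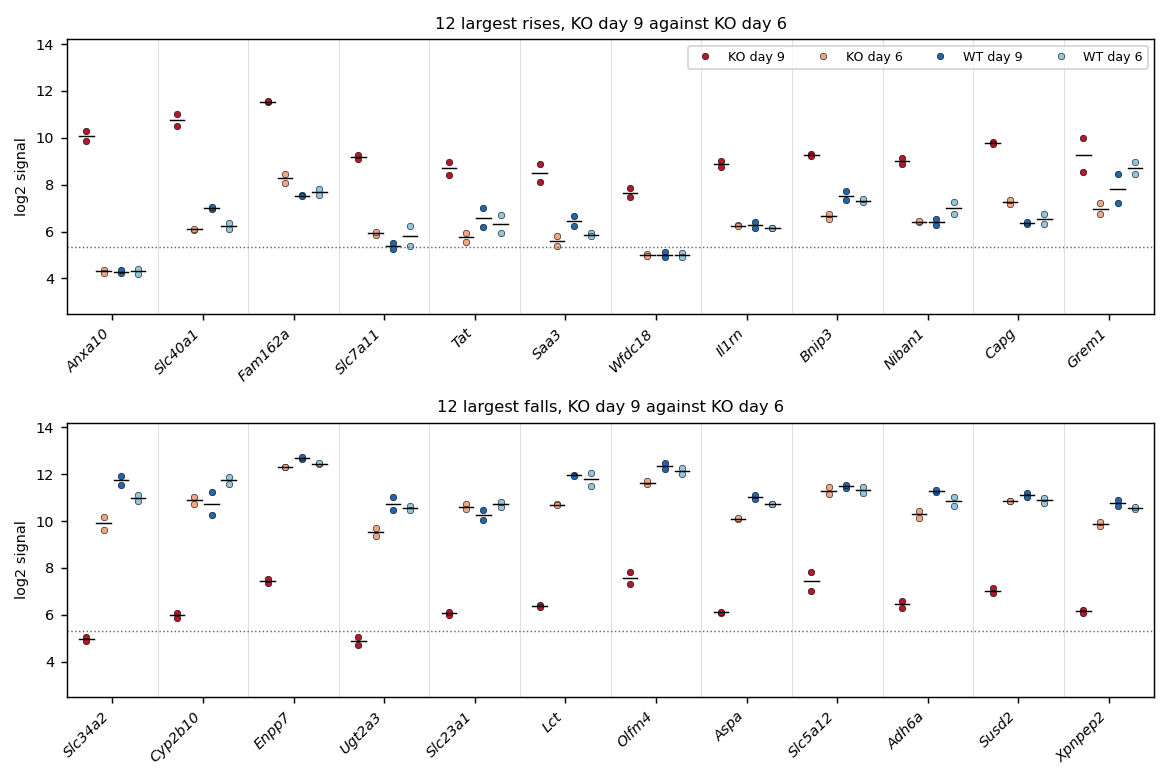
Log2 signal on each array (points) and group mean (bar) for the 12 largest rises (top) and 12 largest falls (bottom) of KO day 9 against KO day 6, with WT at the same days; the dotted line is the background limit of 5.33. KO day 9 points stand apart from the 3 other groups in most genes, for example Lct at 6.43 and 6.32 in KO at day 9.

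Promoter sequence was looked at for these 24 genes, since many of them moved together and the enterocyte factors have well-known binding motifs. RefSeq windows on GRCm38.p6, from 250 bases before to 50 bases after the start of the gene, were given for 20 of them. Those of a rise that began under the background limit and of 2 falls are shown, 5′ to 3′ on the strand of the gene. All 3 genes lie on the minus strand: Anxa10 at chr8:62123144-62123443, Lct at chr1:128328269-128328568 and Ugt2a3 at chr5:87337146-87337445. Capitals mark motifs, searched on both strands: the letters TGANTCA for AP-1, the letters TTTATG for CDX, the letters AGATAA for GATA factors and the letters GTTAAT for HNF1.
Anxa10: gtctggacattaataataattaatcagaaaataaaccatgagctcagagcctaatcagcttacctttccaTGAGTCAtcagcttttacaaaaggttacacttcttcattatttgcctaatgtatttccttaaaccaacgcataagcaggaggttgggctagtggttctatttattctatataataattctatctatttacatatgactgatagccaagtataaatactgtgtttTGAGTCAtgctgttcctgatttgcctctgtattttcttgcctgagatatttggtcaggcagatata
Lct: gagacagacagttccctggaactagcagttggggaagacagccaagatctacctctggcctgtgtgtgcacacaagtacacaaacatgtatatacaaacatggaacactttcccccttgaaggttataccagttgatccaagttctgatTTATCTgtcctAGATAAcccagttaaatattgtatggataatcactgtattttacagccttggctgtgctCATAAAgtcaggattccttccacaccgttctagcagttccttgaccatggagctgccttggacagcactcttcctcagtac
Ugt2a3: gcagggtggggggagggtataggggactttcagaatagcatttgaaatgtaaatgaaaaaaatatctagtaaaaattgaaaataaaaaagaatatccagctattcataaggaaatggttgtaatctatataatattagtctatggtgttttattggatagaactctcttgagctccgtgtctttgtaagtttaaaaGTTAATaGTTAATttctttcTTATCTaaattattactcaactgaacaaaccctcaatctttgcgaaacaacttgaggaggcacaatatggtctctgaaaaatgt
The Anxa10 window held the AP-1 letters at 180 and 16 bases before the start site. In the Lct window the CDX letters began 31 bases and the GATA letters 101 and 90 bases before it. The Ugt2a3 window held HNF1 letters 54 and 47 bases before the start and GATA letters 34 bases before it. No motif overlapped another in these windows. The windows shown are not typical of the 20. Those of Lct and Ugt2a3 held the most matches, 3 each, and that of Slc34a2, the largest fall, held 0. Of all 27025 windows, 7.9% held the AP-1 letters, 12.1% the CDX letters, 11.4% the GATA letters and 7.2% the HNF1 letters. Among the 11 windows of rises, 2 held AP-1, 1 CDX, 2 GATA and 0 HNF1, and among the 9 windows of falls 0 held AP-1, 3 CDX, 3 GATA and 2 HNF1. These are matches of letters in small sets and describe no binding.

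Transcripts of many digestive enzymes of the brush border were lower at day 9. Of 22 measured enzymes of the brush border, 0 rose, 16 fell and 6 did not pass (median log2 change -1.38 in KO and 0.14 in WT). The mean of the list was 9.23 and 9.39 in KO at day 9, against 10.96 and 10.92 at day 6, without overlap. Beside Enpp7, Lct and Xpnpep2, the metalloprotease Mep1a had 6.30 and 6.55 in KO at day 9, against 9.75 and 9.64 at day 6, a 9.63-fold fall. The neutral endopeptidase Mme fell (log2 difference -2.71), the phosphodiesterase Enpp3 (-2.29), the trehalase Treh (-1.82), angiotensin-converting enzyme, Ace, (-1.61) and Dpp4 (-1.58). Aminopeptidase N, Anpep, fell less (-0.78). Not every enzyme passed the test. Sucrase-isomaltase, Sis, had 12.57 and 12.86 in KO at day 9, against 13.29 and 13.05 at day 6 (-0.45, adjusted p = 0.153). The alkaline phosphatase Alpi had 12.05 and 12.28 in KO at day 9, against 12.54 and 12.40 at day 6 (-0.30, adjusted p = 0.0664). In both genes the day 9 arrays lay under those of day 6. Anpep lost its call with the muscle covariate, and without KO day 9 replicate 1 (-0.64) or KO day 6 replicate 2 (-0.74).

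Structural genes of the microvillus fell by smaller amounts. Of 23 genes, 0 rose, 15 fell and 8 did not pass (median log2 change -0.46 in KO and 0.12 in WT). Pdzk1, a scaffold for transporters, had 7.39 and 7.10 in KO at day 9, against 9.56 and 9.42 at day 6, a 4.75-fold fall. Tmigd1, an adhesion molecule, fell (-1.98), the actin nucleator Cobl (-1.19) and Anks4b, of the complex that links microvilli, (-1.10). The actin bundler villin, Vil1, had 11.78 and 11.97 in KO at day 9, against 12.58 and 12.62 at day 6 and fell 1.65-fold. Myo5b, a motor that carries cargo to the apical surface, stood at -0.02, adjusted p = 0.898.

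Transporters were the list with the largest share of falls among the 62 lists. Of 33 transporters of nutrients, ions and vitamins, 0 rose, 26 fell and 7 did not pass (median log2 change -1.02 in KO and 0.14 in WT), with list means of 8.08 and 8.34 in KO at day 9, against 9.56 and 9.54 at day 6. Falls covered sugars, with Slc2a5 for fructose (-2.55), Slc2a2 for glucose at the basal side (-2.53) and the sodium-glucose cotransporter Slc5a1 (-1.59). Slc5a1 had 10.64 and 11.14 in KO at day 9, against 12.47 and 12.48 at day 6. Amino acid and peptide carriers fell too, among them Slc7a8 (-3.05), Slc36a1 (-2.58), Slc43a2 (-2.28), Slc6a19 (-1.23) and the peptide carrier Slc15a1 (-1.57). Vitamin carriers included Slc23a1 above, the B12 receptor Cubn (-2.08), riboflavin carrier Slc52a3 (-1.33) and folate carrier Slc46a1 (-0.97). The sodium-proton exchanger Slc9a3 had 7.91 and 8.93 in KO at day 9, against 9.51 and 9.98 at day 6 and fell 2.51-fold. The sulfate carrier Slc13a1 stood at 0.68, adjusted p = 0.164, and the chloride channel Cftr at -0.57, adjusted p = 0.0529. Slc9a3 was no longer called without KO day 9 replicate 1 (-0.82) or KO day 6 replicate 2 (-1.10).

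Lipid handling was split. Of 26 genes of fat absorption, 0 rose, 13 fell and 13 did not pass (median log2 change -0.39 in KO and 0.08 in WT). The sterol transporters fell together: Abcg5 had 10.21 and 10.59 in KO at day 9, against 11.74 and 11.70 at day 6 (-1.32), Npc1l1 fell (-1.31) and Abcg8 (-1.24). Leaving out KO day 9 replicate 1, KO day 9 replicate 2, KO day 6 replicate 1 or KO day 6 replicate 2, 9, 11, 8 or 11 fell, and 9 did with the muscle covariate. Sar1b, which carries chylomicrons out of the endoplasmic reticulum, fell (-0.92). The abundant fatty acid binding proteins and apolipoproteins did not pass. Fabp1 had 11.54 and 11.47 in KO at day 9, against 11.35 and 11.42 at day 6 (0.12, adjusted p = 0.435), Fabp2 stood at -0.10, adjusted p = 0.629, Apob at 0.14, adjusted p = 0.407 and Apoa4 at 0.07, adjusted p = 0.605.

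Of 27 genes of fatty acid oxidation and ketone synthesis, 2 rose, 17 fell and 8 did not pass (median log2 change -0.47 in KO and 0.05 in WT). Ppargc1a, the coactivator that drives mitochondrial programmes, had 5.83 and 6.45 in KO at day 9, against 9.20 and 9.09 at day 6, an 8.02-fold fall (SE 0.26). Hadh fell (-1.64), Ehhadh (-1.56), the acyl-CoA thioesterase Acot2 (-1.75) and the receptor Ppara (-0.88). Acot2 lost its call in 5 of 21 refits. Acadl, long-chain acyl-CoA dehydrogenase, went the other way with 11.14 and 11.38 in KO at day 9, against 10.65 and 10.37 at day 6 (0.75). Among 29 sphingolipid enzymes, 5 rose, 12 fell and 12 did not pass (median log2 change -0.12 in KO and 0.12 in WT), with the ceramidase Asah2 (-1.17) and the sphingomyelin synthase Sgms2 (-1.07) falling beside Enpp7. With the muscle covariate 1 rose, and 1 did without KO day 9 replicate 1, 4 without KO day 9 replicate 2, 2 without KO day 6 replicate 1 and 2 when KO day 6 replicate 2 was dropped. In the cholesterol synthesis list, 2 rose, 8 fell and 19 did not pass of 29 (median log2 change -0.16 in KO and -0.05 in WT). The desaturase Fads2 fell (-1.49) and the sterol reductase Dhcr7 (-1.30). In refits without KO day 9 replicate 1, KO day 9 replicate 2, KO day 6 replicate 1 or KO day 6 replicate 2, 4, 7, 4 or 4 fell, against 4 with the muscle covariate. The call of Acot2 was lost without KO day 9 replicate 1 (-1.05), KO day 6 replicate 1 (-1.47) or KO day 6 replicate 2 (-2.04). Acadl lost its call without KO day 6 replicate 2 (0.61).

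Many genes of drug metabolism fell, and some of retinoid metabolism. Of 26 cytochrome P450s and flavin oxygenases, 3 rose, 17 fell and 6 did not pass (median log2 change -1.02 in KO and -0.05 in WT). After Cyp2b10, Cyp2c66 had 8.50 and 8.69 in KO at day 9, against 12.16 and 11.71 at day 6, a 10.1-fold fall, Cyp2c55 fell (-3.08), Cyp3a11 (-2.78) and Cyp2s1 (-1.97). These P450 subfamilies hold near-identical genes whose probes may share signal. Cyp2c29 differed (-3.72), and its day 9 mean lay under the background limit. In WT it stood at -2.41 (adjusted p = 0.105). Cyp1b1, which stromal cells also express, rose by 1.03. Of 32 conjugating enzymes and esterases, 2 rose, 17 fell and 13 did not pass (median log2 change -0.62 in KO and -0.01 in WT). Carboxylesterases Ces2a (-1.97), Ces2e (-1.72) and Ces1f (-1.34) fell, and the glutathione transferase Gsta4 rose by 1.04. Of 22 genes of retinoid metabolism and alcohol dehydrogenases, 2 rose, 7 fell and 13 did not pass (median log2 change -0.11 in KO and 0.08 in WT). Adh1 fell (-2.22) and the carotenoid-cleaving Bco2 (-1.64), while the retinol dehydrogenase Dhrs9 rose by 1.36. Ces2a was no longer called without KO day 9 replicate 2 (-1.69) or KO day 6 replicate 1 (-1.20).

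The urea-cycle and gluconeogenic enzymes of the enterocyte, which make citrulline and glucose, fell too. Of 22 genes, 1 rose, 14 fell and 7 did not pass (median log2 change -0.62 in KO and 0.11 in WT). Pck1, the enzyme that commits carbon to glucose synthesis, had 6.54 and 6.41 in KO at day 9, against 9.18 and 10.17 at day 6, a 9.19-fold fall. Arg2, mitochondrial arginase, had 7.11 and 6.97 in KO at day 9, against 9.91 and 9.76 at day 6, a 6.92-fold fall. The fructose kinase Khk fell (-2.32), Nags (-1.57), Oat (-1.35), Cps1 (-1.17) and Otc (-1.16); the last 4 are steps of citrulline synthesis or its supply.

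Bile acid and iron genes moved in both directions. Of 14 bile acid genes, 3 rose, 5 fell and 6 did not pass (median log2 change 0.04 in KO and -0.03 in WT). Slc10a2, the bile acid importer typical of the ileum, had 10.57 and 10.45 in KO at day 9, against 9.29 and 9.10 at day 6, a 2.49-fold rise (adjusted p = 3.39e-04). The ileal hormone Fgf15 rose by 0.76. The exporter subunit Slc51b (-0.72) and the receptor Nr1h4 (-0.46) fell. Of 19 iron and heme genes, 6 rose, 4 fell and 9 did not pass (median log2 change 0.09 in KO and 0.14 in WT). Beside ferroportin, the duodenal iron reductase Cybrd1 had 7.72 and 8.35 in KO at day 9, against 6.50 and 6.44 at day 6 (1.56), and Hmox1, which breaks down heme, had 7.72 and 7.57 in KO at day 9, against 6.23 and 6.03 at day 6 (1.52). The heme exporter Flvcr1 had 8.17 and 8.43 in KO at day 9, against 10.56 and 10.20 at day 6 (-2.08). Slc11a2, the iron importer DMT1, stood at -0.20, adjusted p = 0.214 and Tfrc, the transferrin receptor, at -0.11, adjusted p = 0.572. By count, 4 rose without KO day 9 replicate 1, 5 without KO day 9 replicate 2, 3 without KO day 6 replicate 1, 3 without KO day 6 replicate 2 and 3 with the muscle covariate. Falls among bile acid genes numbered 3 without KO day 9 replicate 1 or KO day 6 replicate 2. Slc40a1 and Cybrd1 are higher in duodenum than in jejunum of normal mice; of the other duodenal markers Onecut2 stood at 0.64, adjusted p = 0.0924 and Pdx1 lay under the background limit, at 5.05 in KO at day 9 and 4.86 at day 6. A shift in the sampled stretch of gut was not tested. Of 21 ileal, duodenal and colonic markers, 5 rose, 4 fell and 12 did not pass. The call of Nr1h4 was lost without KO day 9 replicate 1 (-0.38), KO day 6 replicate 1 (-0.53) or KO day 6 replicate 2 (-0.39).

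Transcription factors that keep intestinal identity fell in part. Of 28 factors, 3 rose, 14 fell and 11 did not pass (median log2 change -0.36 in KO and 0.01 in WT). The vitamin D receptor Vdr had 9.49 and 9.60 in KO at day 9, against 11.42 and 11.21 at day 6, a 3.42-fold fall. The thyroid hormone receptor Thrb fell (-1.60), Maf (-1.56), Nr5a2 (-1.51), Hnf4g (-0.97) and Hnf4a (-0.41). Gata4, which sets the jejunum apart from the ileum, had 9.08 and 9.44 in KO at day 9, against 10.32 and 10.14 at day 6, a 1.95-fold fall. Cdx2, the caudal factor that sets intestine apart from stomach, had 10.13 and 10.23 in KO at day 9, against 10.30 and 10.06 at day 6 (-0.00, adjusted p = 0.997). Pparg rose by 0.53 and Elf3 by 0.52. When KO day 9 replicate 1, KO day 9 replicate 2, KO day 6 replicate 1 or KO day 6 replicate 2 was left out, 10, 12, 9 or 10 fell. The muscle covariate left 10. Of the genes named here, calls ended without KO day 9 replicate 1 for Hnf4a (-0.25) and Elf3 (0.54) and without KO day 9 replicate 2 for Pparg (0.42) and Elf3 (0.49). Further calls were lost without KO day 6 replicate 1 for Hnf4a (-0.40) and Elf3 (0.48) and without KO day 6 replicate 2 for Hnf4a (-0.42), Pparg (0.36) and Elf3 (0.56).

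Clock genes fell in part as well, in samples whose hour of collection is not given. Of 21 clock genes, 1 rose, 6 fell and 14 did not pass (median log2 change -0.22 in KO and -0.02 in WT). The repressor Nr1d1 had 8.95 and 9.84 in KO at day 9, against 11.52 and 11.39 at day 6, a 4.17-fold fall. Usp2, a deubiquitinase under clock control, fell (-2.18), Nr1d2 (-0.88) and Arntl (-0.85). Dbp stood at -0.81, adjusted p = 0.116 and Per2 at -0.45, adjusted p = 0.0539. The part of the hour of collection in these values was not tested.

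Crypt base markers split between falls and rises. Of 24 markers of stem cells, 4 rose, 7 fell and 13 did not pass (median log2 change -0.18 in KO and -0.04 in WT). After Olfm4, the water channel Aqp4 had 5.84 and 5.98 in KO at day 9, against 7.41 and 7.60 at day 6 (-1.59). Lgr5, the receptor that marks dividing stem cells, had 5.85 and 6.16 in KO at day 9, against 7.32 and 7.04 at day 6, a 2.26-fold fall (SE 0.16, adjusted p = 4.78e-04). Axin2, a target of Wnt signalling, fell (-0.78). Smoc2 stood at -0.01, adjusted p = 0.984 and Lrig1 at -0.16, adjusted p = 0.476. In contrast Igfbp4 rose by 1.23, Prom1 by 0.74, Sox9 by 0.71 and Cd44 by 0.60, genes that transit-amplifying or injured epithelium also uses. Igfbp4 lost its call without KO day 9 replicate 1 (0.88). Prom1 was no longer called without KO day 9 replicate 2 (0.54) or KO day 6 replicate 1 (0.69). The call of Sox9 was lost without KO day 9 replicate 2 (0.60) or KO day 6 replicate 2 (0.60).

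Among 39 signals of the stem cell niche, 5 rose, 6 fell and 28 did not pass (median log2 change 0.08 in KO and 0.03 in WT). These shares, 12.8% higher and 15.4% lower, were near those of all genes, 10.0% and 14.5%. Bmp4 fell (-1.18), Bmp3 (-1.03), and the Hedgehog receptor and target Ptch1 (-0.87) together with Hhip (-0.86). Bmp8b rose by 1.56 beside Grem1. Bmp4 lost its call in 5 of 21 refits. The count that fell was 3 without KO day 9 replicate 1, 7 without KO day 9 replicate 2, 3 without KO day 6 replicate 1, 3 without KO day 6 replicate 2 and 3 with the muscle covariate. Rises of the list numbered 1, 6, 3 and 2 in those 4 refits without 1 mouse. Of 19 ligands, receptors and regulators of the EGF pathway, 3 rose, 3 fell and 13 did not pass (median log2 change 0.01 in KO and -0.07 in WT). That is 15.8% in each direction, also near the shares of all genes. Betacellulin, Btc, had 9.97 and 10.01 in KO at day 9, against 7.99 and 7.86 at day 6, a 4.18-fold rise. The receptor Egfr had 9.32 and 9.36 in KO at day 9, against 8.47 and 8.45 at day 6 (0.88). Ptgs2, the inducible prostaglandin synthase, fell (-1.10) and Hpgd, which breaks prostaglandins down, (-1.42). Of 37 phosphatases and immediate early genes downstream of such receptors, 9 rose, 2 fell and 26 did not pass (median log2 change 0.31 in KO and -0.07 in WT). Dusp4 rose by 0.74 and Spry4 by 0.68, but few of these rises held. Leaving out KO day 9 replicate 1, KO day 9 replicate 2, KO day 6 replicate 1 or KO day 6 replicate 2, 1, 10, 5 or 5 rose, and 1 did with the muscle covariate. In the Notch list of 25 genes, 3 rose, 3 fell and 19 did not pass, with Dtx3l at -1.02 and Notch2 at 0.78. Its shares, 12.0% in each direction, were near those of all genes too. Gene by gene, calls were lost without KO day 9 replicate 1 for Bmp4 (-0.62), Ptgs2 (-0.89), Dusp4 (0.67) and Spry4 (0.59) and without KO day 6 replicate 1 for Bmp4 (-0.99), Ptgs2 (-0.97), Dusp4 (0.64) and Spry4 (0.69). Calls also ended without KO day 6 replicate 2 for Bmp4 (-1.37), Ptgs2 (-1.23) and Spry4 (0.66).

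The regenerative programme rose together. Of 27 genes of regenerating and fetal-like epithelium, 20 rose, 1 fell and 6 did not pass (median log2 change 0.98 in KO and -0.01 in WT). The list mean was 9.57 and 9.54 in KO at day 9, against 8.33 and 8.33 at day 6, while WT lay at 7.97 and 8.09 at day 9, against 8.13 and 8.15 at day 6. S100a6, a calcium-binding protein, had 10.36 and 10.21 in KO at day 9, against 8.20 and 8.11 at day 6, a 4.4-fold rise. Ly6d, a surface protein of the Ly6 family, had 9.90 and 9.91 in KO at day 9, against 7.66 and 7.86 at day 6, a 4.42-fold rise. Anxa1 had 8.48 and 8.93 in KO at day 9, against 6.46 and 6.72 at day 6 (4.32-fold higher) and Anxa3 9.34 and 9.18 in KO at day 9, against 7.27 and 7.30 at day 6 (3.93-fold higher). Sprr1a, a cornified envelope protein of stratified epithelia, had 12.84 and 13.09 in KO at day 9, against 11.30 and 10.55 at day 6 (log2 difference 2.04, SE 0.35, adjusted p = 0.00215). Clu, clusterin, the marker of revival stem cells, had 9.84 and 9.42 in KO at day 9, against 7.01 and 8.29 at day 6 (log2 difference 1.98, SE 0.66, adjusted p = 0.0477), with the day 6 mice over 1 log2 unit apart, and its call was lost in 8 of 21 refits. The alarmin Il33 rose by 1.65 and Tnfrsf12a, the TWEAK receptor, by 1.18. Emp1 alone fell (-0.81). In the refits 16 to 21 members rose and 0 or 1 fell. Clu was no longer called without KO day 9 replicate 1 (1.77), KO day 9 replicate 2 (2.19), KO day 6 replicate 1 (1.34) or KO day 6 replicate 2 (2.62). The call of Emp1 was lost without KO day 9 replicate 1 (-0.73) or KO day 6 replicate 1 (-0.76).

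The next lists share members with the regenerative one, so their counts are not separate from it. Of 25 annexins and S100 proteins, 16 rose, 2 fell and 7 did not pass (median log2 change 0.46 in KO and 0.01 in WT). Anxa1, Anxa2, Anxa3, Anxa5, Anxa8, Anxa10, S100a6, S100a10, S100a11 and S100a14 stand in both lists. S100a14 rose by 1.57, Anxa5 by 1.32 and S100a16 by 1.15, while Anxa11 fell (-0.60). Of 37 keratins and cornified envelope genes, 13 rose, 0 fell and 24 did not pass (median log2 change 0.23 in KO and 0.02 in WT). Krt7, Krt19, Krt20 and Sprr1a were already counted in the regenerative list. The simple-epithelium keratins Krt18 (1.17) and Krt8 (0.76) rose with Krt23 (1.16) and Krt7 (0.98). Krt7 had 9.76 and 9.86 in KO at day 9, against 8.88 and 8.77 at day 6. Krt5 of stratified epithelium lay near the background limit, at 5.41 in KO at day 9 and 5.12 at day 6. With the muscle covariate 9 rose, and 9 did without KO day 9 replicate 1, 11 without KO day 9 replicate 2, 9 without KO day 6 replicate 1 and 8 when KO day 6 replicate 2 was dropped. Of 26 targets of YAP, the effector of the Hippo pathway, 7 rose, 2 fell and 17 did not pass (median log2 change 0.18 in KO and -0.05 in WT). The nucleotidase Nt5e (1.48) and tissue factor, F3 (1.38), rose, and Nuak2 fell (-1.11). The common targets Ccn1 (0.19, adjusted p = 0.277) and Ccn2 (0.74, adjusted p = 0.0856) did not pass. Of 30 claudins and junction genes, 4 rose, 5 fell and 21 did not pass (median log2 change 0.07 in KO and 0.16 in WT). Their shares, 13.3% higher and 16.7% lower, were near those of all genes, 10.0% and 14.5%. Cldn4 rose by 1.01 and Cldn15, a sodium-permeable claudin of the small intestine, fell (-0.86). In refits without KO day 9 replicate 1, KO day 9 replicate 2, KO day 6 replicate 1 or KO day 6 replicate 2, 2, 4, 2 or 2 fell, against 2 with the muscle covariate. The rises numbered 1, 2, 1 and 0 in the same order of arrays left out and 0 with the covariate. The threshold was missed without KO day 9 replicate 1 for Anxa11 (-0.53), Nt5e (1.40) and Cldn4 (0.99) and without KO day 6 replicate 1 for Anxa11 (-0.46). Others were lost without KO day 6 replicate 2 for Cldn4 (0.84). Within the threshold, Nt5e stood at 0.80 without KO day 6 replicate 1.

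Many cell division genes fell, and others did not pass. Of 60 genes of mitosis and cytokinesis, 0 rose, 30 fell and 30 did not pass (median log2 change -0.45 in KO and 0.06 in WT). When tested against the WT day change, 0 were called higher and 11 lower (median difference -0.46). The list mean was 7.40 and 7.47 in KO at day 9, against 7.79 and 7.89 at day 6, and 7.62 and 7.55 in WT at day 9, against 7.49 and 7.59 at day 6. The KO arrays of day 6 were thus the highest of the 8, and those of day 9 the lowest. The proliferation marker Mki67 had 9.30 and 9.56 in KO at day 9, against 10.35 and 10.25 at day 6 (log2 difference -0.87, SE 0.23, adjusted p = 0.0168). That call was lost in 4 of 21 refits. Wee1, which restrains entry into mitosis, fell (-1.16), Hmmr (-0.95) and the condensin Ncaph (-0.95). Cdk1 stood at -0.01, adjusted p = 0.976 and Top2a at -0.29, adjusted p = 0.107. By count, 11 fell without KO day 9 replicate 1, 23 without KO day 9 replicate 2, 17 without KO day 6 replicate 1, 9 without KO day 6 replicate 2 and 8 with the muscle covariate. Of 48 genes of DNA replication, 0 rose, 21 fell and 27 did not pass (median log2 change -0.30 in KO and -0.01 in WT). Against the WT day change, 0 replication genes were called higher and 10 lower (median difference -0.30). Rfc4 (-1.13), Mcm3 (-1.03), Pole2 (-0.94) and Prim1 (-0.88) fell, with Mcm3 at 7.50 and 7.57 in KO at day 9, against 8.53 and 8.59 at day 6, while Pcna stood at -0.26, adjusted p = 0.13. When KO day 9 replicate 1, KO day 9 replicate 2, KO day 6 replicate 1 or KO day 6 replicate 2 was left out, 18, 15, 14 or 12 fell. The muscle covariate left 12. After quantile normalisation 23 mitosis genes fell and 3 rose. Mki67 was no longer called without KO day 9 replicate 1 (-0.74), KO day 6 replicate 1 (-0.82) or KO day 6 replicate 2 (-0.92). The call of Hmmr was lost without KO day 9 replicate 1 (-0.92) or KO day 6 replicate 2 (-0.90).

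Of 45 centriole and centrosome genes, the family of the targeted gene, 3 rose, 14 fell and 28 did not pass (median log2 change -0.24 in KO and 0.03 in WT). Sass6, which builds the cartwheel of the new centriole, had 6.84 and 6.94 in KO at day 9, against 7.95 and 8.04 at day 6, a 2.15-fold fall. Its partners Stil (-0.67) and the kinase Plk4 (-0.48) fell too, as did Tubgcp3 of the microtubule nucleating complex (-0.68). Ssna1 rose by 0.38. The count that fell was 5 without KO day 9 replicate 1, 12 without KO day 9 replicate 2, 5 without KO day 6 replicate 1, 3 without KO day 6 replicate 2 and 3 with the muscle covariate. Of 35 targets of p53, the transcription factor of the DNA damage and centrosome loss responses, 2 rose, 13 fell and 20 did not pass (median log2 change -0.12 in KO and 0.06 in WT). The entries Cdkn1a, Bax, Gdf15 and Trp53 matched no measured gene and are not among them. Mdm2, which degrades p53, had 8.38 and 9.11 in KO at day 9, against 10.12 and 9.72 at day 6 (-1.18). Sesn1 fell (-0.79), Pidd1 (-0.74), Fas (-0.56) and Ccng1 (-0.54). The proapoptotic Pmaip1 (0.71) and Bbc3 (0.44) rose. Leaving out KO day 9 replicate 1, KO day 9 replicate 2, KO day 6 replicate 1 or KO day 6 replicate 2, 5, 10, 5 or 6 fell, and 5 did with the muscle covariate. Among single genes, calls were lost without KO day 9 replicate 1 for Stil (-0.61), Plk4 (-0.42), Ssna1 (0.31), Mdm2 (-0.81), Fas (-0.46), Pmaip1 (0.57) and Bbc3 (0.35) and without KO day 6 replicate 1 for Stil (-0.64), Ssna1 (0.31), Mdm2 (-0.98), Fas (-0.58), Pmaip1 (0.51) and Bbc3 (0.37). Calls were also lost without KO day 6 replicate 2 for Stil (-0.70), Plk4 (-0.37) and Fas (-0.54).

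Genes induced by low oxygen and glycolysis rose together. Of 33 genes, 20 rose, 1 fell and 12 did not pass (median log2 change 0.57 in KO and 0.07 in WT). Hexokinase 2, Hk2, had 10.53 and 10.84 in KO at day 9, against 8.52 and 8.47 at day 6, a 4.57-fold rise. The glucose importer Slc2a1 had 10.65 and 11.01 in KO at day 9, against 9.40 and 9.51 at day 6, a 2.59-fold rise, and the lactate exporter Slc16a3 rose by 1.33. Pfkl (1.31), Pgk1 (1.25), Aldoa (0.72) and Pkm (0.54) rose, as did Ankrd37 (1.40), Egln3 (0.64) and Hif1a itself (0.53). Mxi1 fell (-1.0). Vegfa (0.27, adjusted p = 0.0996), Ldha (0.08, adjusted p = 0.493) and Car9 (-0.40, adjusted p = 0.0541) did not pass. In every refit of this list 16 to 24 members rose. Egln3 was no longer called without KO day 9 replicate 1 (0.65), KO day 9 replicate 2 (0.63) or KO day 6 replicate 2 (0.48). The call of Hif1a was lost without KO day 9 replicate 2 (0.35) or KO day 6 replicate 2 (0.44).

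Of 22 targets of NRF2, the oxidative stress factor, 13 rose, 2 fell and 7 did not pass (median log2 change 0.52 in KO and -0.05 in WT). Beside Slc7a11, Cbr3 rose by 1.30, the exporter Abcc1 by 1.07 and the antioxidant Gpx2 by 0.91. The classic targets did not move as one: Nqo1 had 7.70 and 7.74 in KO at day 9, against 7.91 and 8.07 at day 6 (-0.27, adjusted p = 0.111), Txnrd1 stood at -0.04, adjusted p = 0.753, and Osgin1 fell (-1.43). With the muscle covariate 7 rose, and 9 did without KO day 9 replicate 1, 10 without KO day 9 replicate 2, 8 without KO day 6 replicate 1 and 9 when KO day 6 replicate 2 was dropped. In the integrated stress and unfolded protein list, 15 rose, 7 fell and 20 did not pass of 42 (median log2 change 0.20 in KO and -0.08 in WT). Beside Slc7a11, the rise was largest in Sec61b, a subunit of the protein-conducting channel of the endoplasmic reticulum (1.38). Asns, asparagine synthetase, had 11.21 and 11.14 in KO at day 9, against 10.14 and 10.16 at day 6 (1.02), Atf5 rose by 1.04, Mthfd2 by 0.95, Eif4ebp1 by 1.25, Ddit3 by 0.70 and Atf4 by 0.42. Folding genes of the endoplasmic reticulum were among the falls, with Dnajb9 at -0.65, Pdia4 at -0.53 and Hyou1 at -0.39. Hspa5 stood at -0.28, adjusted p = 0.0733. In refits without KO day 9 replicate 1, KO day 9 replicate 2, KO day 6 replicate 1 or KO day 6 replicate 2, 9, 12, 8 or 8 rose, against 11 with the muscle covariate. Among the falls of this list the counts were 1, 5, 1 and 3 in those 4 refits without 1 mouse. Single calls did not hold without KO day 9 replicate 1 for Ddit3 (0.60), Atf4 (0.44), Dnajb9 (-0.32), Pdia4 (-0.42) and Hyou1 (-0.30) and without KO day 9 replicate 2 for Gpx2 (0.85), Atf4 (0.40) and Hyou1 (-0.48). Further calls were lost without KO day 6 replicate 1 for Gpx2 (0.76), Ddit3 (0.75), Atf4 (0.41), Dnajb9 (-0.47), Pdia4 (-0.50) and Hyou1 (-0.36) and without KO day 6 replicate 2 for Ddit3 (0.66), Atf4 (0.43) and Hyou1 (-0.42).

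Of 28 cytosolic ribosomal proteins, 22 rose, 0 fell and 6 did not pass (median log2 change 0.51 in KO and 0.10 in WT). When tested against the WT day change, 3 were called higher and 0 lower (median difference 0.40). Rps14 had 10.90 and 10.64 in KO at day 9, against 9.87 and 10.06 at day 6 (0.81), and the p53-inducible paralog Rps27l rose by 0.83. Ribosomal protein probes can share signal with the many processed pseudogenes of this family. By count, 5 rose without KO day 9 replicate 1, 21 without KO day 9 replicate 2, 5 without KO day 6 replicate 1, 14 without KO day 6 replicate 2 and 4 with the muscle covariate. Of 29 genes of ribosome assembly, 3 rose, 4 fell and 22 did not pass (median log2 change -0.06 in KO and -0.24 in WT), a median that was 0.08 after quantile normalisation. Of 46 subunits of the respiratory chain, 2 rose, 11 fell and 33 did not pass (median log2 change -0.12 in KO and 0.13 in WT). Ndufs1 of complex I fell (-0.70) and Uqcrc2 of complex III (-0.59), while Uqcrq rose by 0.80 and Cox4i1 by 0.68. The median of this list was 0.03 after quantile normalisation, with 3 rises and 6 falls, and without KO day 6 replicate 2 it held 1 rise and 7 falls. The threshold was missed without KO day 9 replicate 1 for Rps14 (0.68), Uqcrq (0.54) and Cox4i1 (0.48) and without KO day 6 replicate 1 for Rps14 (0.71), Uqcrq (0.77) and Cox4i1 (0.63). Calls were also lost without KO day 6 replicate 2 for Cox4i1 (0.73).

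**Figure D3:**
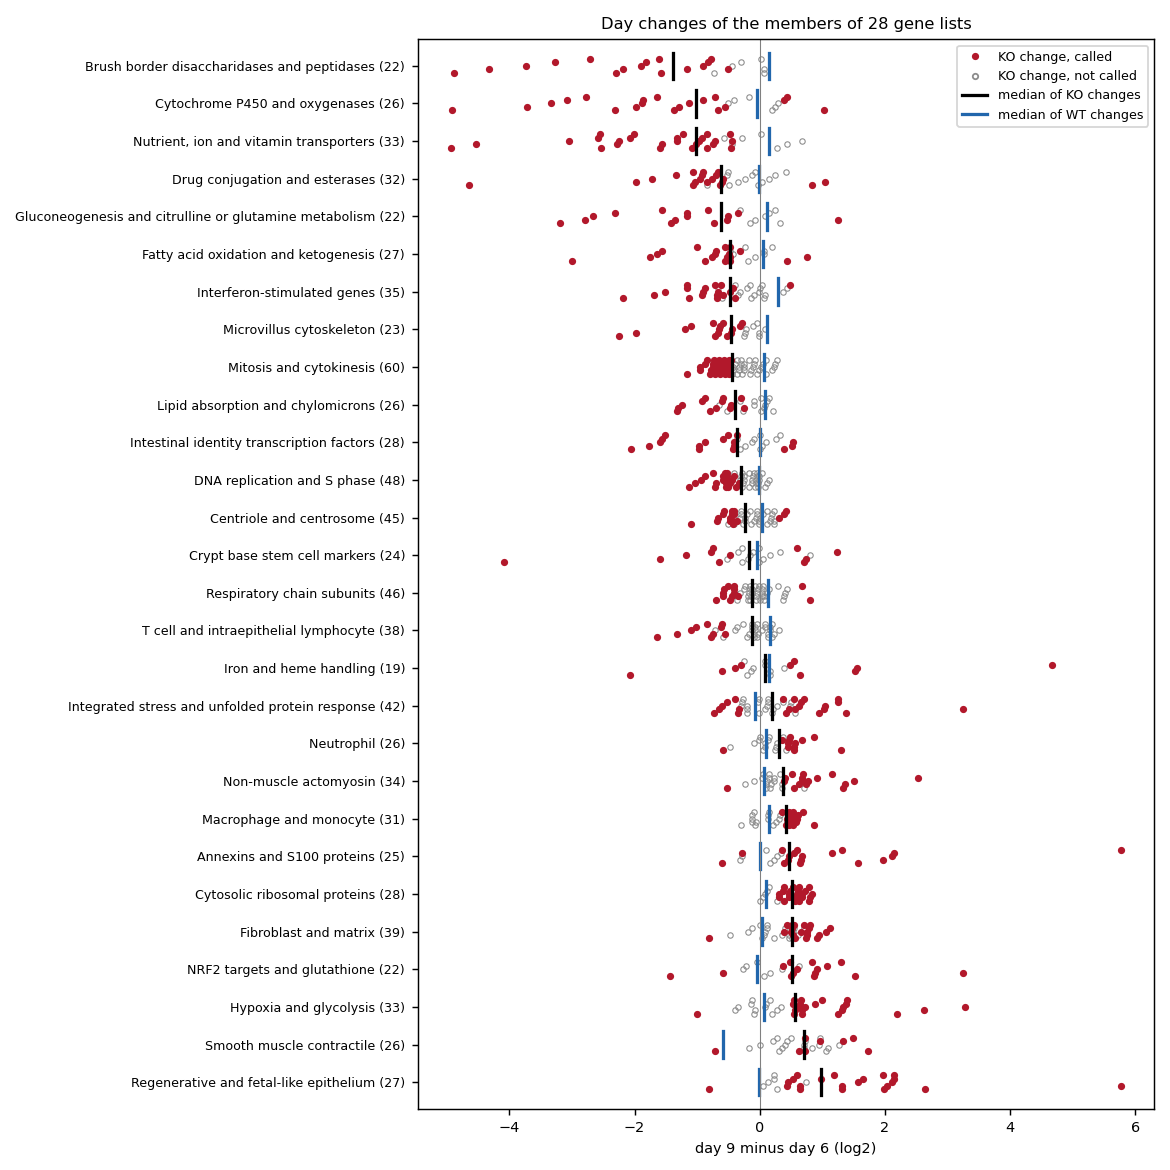
Day 9 minus day 6 (log2) for each member of 28 gene lists in KO, sorted by the median; filled points passed the test, open points did not, the black bar is the KO median and the blue bar the WT median, with the number of members in brackets. Brush border enzymes lie lowest with a median of -1.38 and regenerative genes highest with 0.98, while WT medians in these 2 lists are 0.14 and -0.01.

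Interferon-stimulated genes were lower at day 9 in KO and stood somewhat higher in WT. Of 35 genes, 1 rose, 18 fell and 16 did not pass in KO (median log2 change -0.47 in KO and 0.29 in WT), and 0 passed in WT. Ifit1, an antiviral RNA-binding protein, had 6.24 and 6.44 in KO at day 9, against 8.17 and 8.86 at day 6, a 4.52-fold fall. Its WT signals were 8.36 and 7.90 at day 9, against 7.52 and 7.43 at day 6. Oasl2 fell (-1.69), Oas3 (-1.52), the RNA sensor Ddx58 (-1.16) and the autophagy GTPase Irgm1 (-1.17). Nlrc5 rose (0.49). For the difference between the day changes, 0 rose and 17 fell (median -0.82). The list means show both sides of that difference: 7.19 and 7.39 in KO at day 9, against 7.74 and 7.89 at day 6, and 7.88 and 7.76 in WT at day 9, against 7.40 and 7.46 at day 6. When KO day 9 replicate 1, KO day 9 replicate 2, KO day 6 replicate 1 or KO day 6 replicate 2 was left out, 9, 14, 14 or 12 fell. The muscle covariate left 10. The call of Nlrc5 was lost without KO day 9 replicate 1 (0.35), KO day 6 replicate 1 (0.50) or KO day 6 replicate 2 (0.49).

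Antigen presentation genes fell in part in KO. Of 23 genes, 1 rose, 6 fell and 16 did not pass in KO (median log2 change -0.08 in KO and 0.45 in WT), and 2 rose in WT, the class II genes H2-Aa and H2-DMa. H2-Aa had 9.80 and 9.84 in KO at day 9, against 9.68 and 10.09 at day 6, and in WT 11.42 and 10.99 at day 9, against 9.60 and 10.15 at day 6. B2m, the invariant chain of class I, had 12.23 and 12.56 in KO at day 9, against 12.82 and 12.85 at day 6 (-0.45). The count that fell was 2 without KO day 9 replicate 1, 4 without KO day 9 replicate 2, 4 without KO day 6 replicate 1, 2 without KO day 6 replicate 2 and 2 with the muscle covariate. Tap1 fell (-0.66), Tapbp (-0.63) and Mr1 (-0.78). For the difference between day changes, 0 rose and 11 fell, including H2-Aa at -1.39. Of 32 genes of gasdermins, death receptors and necroptosis, 3 rose, 8 fell and 21 did not pass in KO (median log2 change -0.14 in KO and 0.19 in WT). Tnfsf10, the death ligand TRAIL, had 5.25 and 5.57 in KO at day 9, against 7.49 and 7.61 at day 6, a 4.41-fold fall. Casp1 fell (-0.72), Gsdmd (-0.76) and Cflar (-0.67). Leaving out KO day 9 replicate 1, KO day 9 replicate 2, KO day 6 replicate 1 or KO day 6 replicate 2, 4, 8, 5 or 3 fell, and 3 did with the muscle covariate. For the difference between day changes, 1 rose and 14 fell. Calls were lost without KO day 9 replicate 1 for B2m (-0.28), Tap1 (-0.77), Tapbp (-0.57), Mr1 (-0.71) and Cflar (-0.53) and without KO day 9 replicate 2 for Tap1 (-0.55) and Mr1 (-0.85). Calls also ended without KO day 6 replicate 1 for B2m (-0.46) and Mr1 (-0.64) and without KO day 6 replicate 2 for B2m (-0.43), Tap1 (-0.43), Tapbp (-0.57), Mr1 (-0.91), Gsdmd (-0.57) and Cflar (-0.62).

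Lymphocyte markers of the epithelium fell in part. Of 38 genes of T cells and intraepithelial lymphocytes, 0 rose, 10 fell and 28 did not pass (median log2 change -0.12 in KO and 0.16 in WT). Cd3e, a chain of the T cell receptor complex, had 7.57 and 7.71 in KO at day 9, against 8.73 and 8.76 at day 6 (-1.10). Ccr9, the gut-homing receptor, had 5.98 and 6.81 in KO at day 9, against 7.64 and 7.82 at day 6 (-1.33), and its ligand Ccl25, made by enterocytes, fell (-1.08). Cd4 fell (-1.65), Cd96 (-1.02) and Gzmb (-0.85). Cd8a stood at -0.39, adjusted p = 0.258, and Cd8b1 at -0.04, adjusted p = 0.893. Cd4 lost its call in 3 of 21 refits. With the muscle covariate 4 fell, and 4 did without KO day 9 replicate 1, 10 without KO day 9 replicate 2, 5 without KO day 6 replicate 1 and 5 when KO day 6 replicate 2 was dropped. Of 28 B and plasma cell genes, 2 rose, 2 fell and 24 did not pass (median log2 change 0.14 in KO and -0.27 in WT). Pigr, the epithelial carrier of IgA, had 11.40 and 11.68 in KO at day 9, against 12.99 and 13.15 at day 6, a 2.89-fold fall, while Jchain, made by plasma cells, stood at -0.15, adjusted p = 0.577. The B cell list mean was 7.23 and 6.67 in KO at day 9, against 6.64 and 7.06 at day 6, with the highest values in the arrays that carried the follicle signature. Its median was -0.16 without KO day 9 replicate 1 and -0.10 without KO day 6 replicate 1, so its sign rested on which mice were kept. Cd4 was no longer called without KO day 9 replicate 1 (-1.16) or KO day 6 replicate 1 (-1.60). The call of Gzmb was lost without KO day 9 replicate 1 (-0.95), KO day 9 replicate 2 (-0.75), KO day 6 replicate 1 (-1.10) or KO day 6 replicate 2 (-0.59).

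Myeloid markers rose slightly. Of 31 macrophage and monocyte genes, 16 rose, 0 fell and 15 did not pass (median log2 change 0.42 in KO and 0.15 in WT). Against the WT day change, 3 were called higher and 0 lower (median difference 0.20). Cd14 had 7.03 and 7.06 in KO at day 9, against 6.34 and 6.38 at day 6 (0.69), Tyrobp rose by 0.61, the complement gene C1qc by 0.58 and Apoe by 0.53. Chil3 passed too (0.87), but its group means lay under the background limit. In refits without KO day 9 replicate 1, KO day 9 replicate 2, KO day 6 replicate 1 or KO day 6 replicate 2, 10, 14, 6 or 9 rose, against 6 with the muscle covariate. Of 26 neutrophil genes, 11 rose, 1 fell and 14 did not pass (median log2 change 0.31 in KO and 0.10 in WT), most of them under the background limit in KO at day 6. Against the WT day change, 2 neutrophil genes were called higher and 1 lower (median difference 0.26). Retnlg had 6.84 and 7.68 in KO at day 9, against 5.85 and 6.08 at day 6 (1.30) and S100a9 rose by 0.68. S100a8, its partner, had 4.80 and 4.84 in KO at day 9, against 4.45 and 4.12 at day 6, all under the limit. By count, 10 rose without KO day 9 replicate 1, 5 without KO day 9 replicate 2, 5 without KO day 6 replicate 1, 5 without KO day 6 replicate 2 and 8 with the muscle covariate. Of the other list members, Elane and Mpo lay under the limit in both groups, Mpo at 4.91 at day 9 and 4.82 at day 6. Some calls ended without KO day 6 replicate 1 for Cd14 (0.67), C1qc (0.54) and Apoe (0.45) and without KO day 6 replicate 2 for S100a8 (0.37).

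Of 35 chemokines and granulopoietic factors, 6 rose, 3 fell and 26 did not pass (median log2 change 0.13 in KO and 0.12 in WT). Ccl17, which attracts T helper cells, had 7.72 and 7.99 in KO at day 9, against 6.30 and 6.24 at day 6 (1.58). Ccl28, an epithelial chemokine for plasma cells, had 7.29 and 7.22 in KO at day 9, against 8.74 and 8.93 at day 6 (-1.58). Cxcl1 stood at 0.22, adjusted p = 0.266. The list held 3 rises without KO day 6 replicate 2. Among 34 genes of the interleukin 1 family, TNF and acute cytokines, 4 rose, 4 fell and 26 did not pass (median log2 change 0.08 in KO and 0.10 in WT). Tnf rose by 0.63 beside Il1rn and Il33, and the inflammasome gene Nlrp6 fell (-1.57). Il6 lay under the background limit, at 3.30 at day 9 and 3.42 at day 6. Of 20 genes of mast cells and type 2 responses, 4 rose, 1 fell and 15 did not pass (median log2 change 0.07 in KO and 0.11 in WT), and all 4 rises had day 6 means under the limit. Tnf was no longer called without KO day 9 replicate 2 (0.38), KO day 6 replicate 1 (0.62) or KO day 6 replicate 2 (0.64).

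In each secretory lineage more markers failed the test than passed it, which also holds for all genes, of which 24.5% were called. Of 25 goblet cell genes, 3 rose, 6 fell and 16 did not pass (median log2 change -0.03 in KO and 0.11 in WT), so that 24.0% fell, against 14.5% of all genes. The fucosyltransferase Fut2 had 8.24 and 8.95 in KO at day 9, against 6.46 and 6.72 at day 6, a 4.01-fold rise, and the protease inhibitor Spink1 had 7.08 and 7.47 in KO at day 9, against 9.41 and 9.72 at day 6, a 4.89-fold fall. The mucin Muc2 had 12.76 and 12.93 in KO at day 9, against 12.78 and 12.60 at day 6 (0.15, adjusted p = 0.432), and Tff3 rose by 0.66. When KO day 9 replicate 1, KO day 9 replicate 2, KO day 6 replicate 1 or KO day 6 replicate 2 was left out, 2, 7, 3 or 4 fell. The muscle covariate left 1. Of 21 Paneth cell and antimicrobial genes, 1 rose, 2 fell and 18 did not pass (median log2 change -0.02 in KO and 0.11 in WT). Lysozyme, Lyz1, had 13.48 and 13.70 in KO at day 9, against 13.62 and 13.60 at day 6 (-0.02, adjusted p = 0.916), and Reg3b rose by 0.95. The count that fell was 0 without KO day 9 replicate 1, 5 without KO day 9 replicate 2, 0 without KO day 6 replicate 1, 1 without KO day 6 replicate 2 and 0 with the muscle covariate. Of 30 hormone cell genes, 3 rose, 7 fell and 20 did not pass (median log2 change 0.01 in KO and 0.03 in WT), or 23.3% lower. Gcg fell (-0.59), Nts (-0.59) and Chga (-0.57), while Gip rose by 0.42. Leaving out KO day 9 replicate 1, KO day 9 replicate 2, KO day 6 replicate 1 or KO day 6 replicate 2, 4, 5, 3 or 6 fell, and 4 did with the muscle covariate. Of 25 tuft cell genes, 3 rose, 3 fell and 19 did not pass (median log2 change 0.01 in KO and 0.07 in WT), with Hpgds at -0.63 and Alox5ap at 0.64. Dclk1 stood at -0.22, adjusted p = 0.211. The threshold was missed without KO day 9 replicate 1 for Tff3 (0.58), Nts (-0.68), Gip (0.32) and Hpgds (-0.57) and without KO day 9 replicate 2 for Tff3 (0.74), Reg3b (0.77) and Nts (-0.50). Further calls were lost without KO day 6 replicate 1 for Tff3 (0.68), Reg3b (0.46), Nts (-0.38), Gip (0.34) and Alox5ap (0.55) and without KO day 6 replicate 2 for Tff3 (0.64), Gip (0.50) and Hpgds (-0.54). Still called, Reg3b stood at 1.45 without KO day 6 replicate 2.

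Mucosal glycosylation and oxidase genes split. Of 35 genes, 9 rose, 11 fell and 15 did not pass (median log2 change -0.07 in KO and 0.09 in WT). Duoxa2, the maturation factor of the dual oxidase, had 11.35 and 11.41 in KO at day 9, against 8.82 and 9.37 at day 6, a 4.87-fold rise, and Duox2, which releases hydrogen peroxide at the mucosal surface, had 11.25 and 11.52 in KO at day 9, against 9.89 and 10.45 at day 6 (1.22). The Duox2 call was lost in 10 of 21 refits and that of Duoxa2 in 3. With the muscle covariate 7 rose, and 4 did without KO day 9 replicate 1, 4 without KO day 9 replicate 2, 2 without KO day 6 replicate 1 and 4 when KO day 6 replicate 2 was dropped. The falls of this list numbered 7 without KO day 9 replicate 1 or with the covariate. Nox1, the NADPH oxidase of crypts, had 7.52 and 7.43 in KO at day 9, against 8.43 and 8.46 at day 6 (-0.97). The glycosyltransferase Gcnt4 had 7.52 and 8.12 in KO at day 9, against 10.47 and 10.03 at day 6, a 5.37-fold fall. Of 15 genes of polyamine and eicosanoid metabolism, 4 rose, 5 fell and 6 did not pass. Aoc1, diamine oxidase of the villus tip, had 8.98 and 8.64 in KO at day 9, against 11.91 and 11.88 at day 6, an 8.48-fold fall, and the spermine oxidase Smox rose by 0.77. The 5 falls became 2 without KO day 9 replicate 1, without either KO array of day 6 or with the muscle covariate, and the 4 rises became 2 without the other KO array of day 9, without either of day 6 or with the covariate. Duoxa2 lost its call without KO day 9 replicate 1 (2.31) or KO day 6 replicate 1 (2.01). Duox2 was no longer called without KO day 9 replicate 1 (1.35), KO day 9 replicate 2 (1.08), KO day 6 replicate 1 (0.94) or KO day 6 replicate 2 (1.49).

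Stromal and cytoskeletal genes rose, in arrays that also held more smooth muscle RNA. Of 39 fibroblast and matrix genes, 19 rose, 1 fell and 19 did not pass (median log2 change 0.52 in KO and 0.03 in WT). When tested against the WT day change, 9 were called higher and 1 lower (median difference 0.47). The list mean was 8.44 and 8.44 in KO at day 9, against 8.02 and 8.0 at day 6. Col18a1 (1.12), Lamb3, an epithelial laminin chain (1.05), Thbs1 (0.94) and Col1a1 (0.92) rose, with Col1a1 at 10.06 and 9.90 in KO at day 9, against 9.09 and 9.04 at day 6. Pdgfra stood at 0.07, adjusted p = 0.757, Dcn at 0.11, adjusted p = 0.723 and Fbln1 fell (-0.81). The smooth muscle means of the day 9 mice were apart (8.75 and 7.87) while their matrix means were equal. In refits without KO day 9 replicate 1, KO day 9 replicate 2, KO day 6 replicate 1 or KO day 6 replicate 2, 13, 15, 13 or 12 rose, against 11 with the muscle covariate.

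Of 34 genes of non-muscle actin and myosin, 16 rose, 1 fell and 17 did not pass (median log2 change 0.37 in KO and 0.06 in WT). Tmsb10, which binds actin monomers, had 12.56 and 12.53 in KO at day 9, against 11.02 and 11.06 at day 6, a 2.83-fold rise. Myl6 rose by 1.36, Flna by 1.15, Actn1 by 0.91 and Myh9 by 0.77, and Actn4 fell (-0.53). Actb stood at 0.05, adjusted p = 0.728. Of 27 matrix proteases and plasminogen genes, 14 rose, 3 fell and 10 did not pass (median log2 change 0.39 in KO and 0.04 in WT). The plasminogen activator Plat had 9.33 and 9.38 in KO at day 9, against 7.77 and 7.34 at day 6, a 3.48-fold rise, and the urokinase receptor Plaur had 9.02 and 9.03 in KO at day 9, against 7.50 and 7.21 at day 6, a 3.18-fold rise. Mmp10 rose by 1.03 and Ctsl by 1.09. The macrophage elastase Mmp12 differed by 1.26 from a day 6 mean under the limit, and lost its call in 14 of 21 refits. By count, 10 rose without KO day 9 replicate 1, 8 without KO day 9 replicate 2, 7 without KO day 6 replicate 1, 9 without KO day 6 replicate 2 and 10 with the muscle covariate. The call of Flna was lost without KO day 9 replicate 1 (0.77), KO day 6 replicate 1 (1.15) or KO day 6 replicate 2 (1.16). Mmp12 lost its call without KO day 9 replicate 1 (1.64), KO day 9 replicate 2 (0.89), KO day 6 replicate 1 (1.26) or KO day 6 replicate 2 (1.27).

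Of the 26 smooth muscle genes, 7 rose, 1 fell and 18 did not pass (median log2 change 0.71 in KO and -0.59 in WT). Des, the muscle intermediate filament, had 9.31 and 7.76 in KO at day 9, against 6.95 and 6.65 at day 6 (log2 difference 1.73, SE 0.47, adjusted p = 0.021), and Tagln rose by 1.49. When KO day 9 replicate 1, KO day 9 replicate 2, KO day 6 replicate 1 or KO day 6 replicate 2 was left out, 1, 16, 1 or 1 rose. The muscle covariate left 2. The size of this change thus rested on which mice were kept. Ret, the receptor of enteric neurons, which other cells also express, had 8.90 and 9.40 in KO at day 9, against 7.06 and 6.85 at day 6, a 4.58-fold rise. Of 24 enteric neuron and glia genes, 3 rose, 1 fell and 20 did not pass (median log2 change 0.13 in KO and -0.09 in WT). The count that rose was 2 without KO day 9 replicate 1, 6 without KO day 9 replicate 2, 2 without KO day 6 replicate 1, 1 without KO day 6 replicate 2 and 2 with the muscle covariate. Of 24 endothelial genes, 2 rose, 1 fell and 21 did not pass (median log2 change 0.15 in KO and 0.07 in WT). Des was no longer called without KO day 9 replicate 1 (0.96), KO day 6 replicate 1 (1.89) or KO day 6 replicate 2 (1.58). The call of Tagln was lost without KO day 9 replicate 1 (0.72), KO day 6 replicate 1 (1.65) or KO day 6 replicate 2 (1.34). Still called, Tagln stood at 2.27 without KO day 9 replicate 2.

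**Figure D4:**
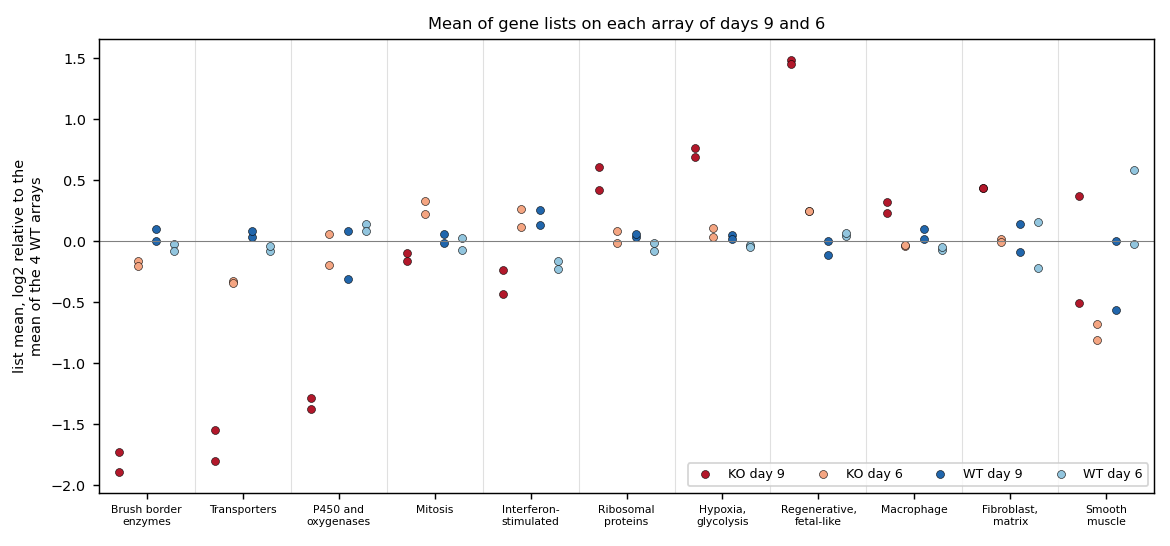
Mean log2 signal of 11 gene lists on each array, relative to the mean of the 4 WT arrays of days 9 and 6; each point is 1 mouse. In KO at day 9 both mice lie lowest in the brush border, transporter and P450 lists and highest in the regenerative list, whereas their smooth muscle means are apart.

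The 12 genes called in WT between days 9 and 6 were Dio1, Fkbp5, Gsta4, H2-Aa, H2-DMa, Ido1, Myzap, Pgap1, Phlda2, Pim1, Saa1 and Tnfsf10. Of these, 7 were also called in KO, which is 7 of 12 WT calls and 0.143% of the 4890 KO calls. All 7 moved in the opposite direction in KO. The smallest of these KO changes, that of Myzap (-0.26, adjusted p = 0.0405), lost its call in 13 of 21 refits, each of those without 1 KO array of day 9 or 6 among them. Ido1, which degrades tryptophan, had 6.50 and 6.77 in KO at day 9, against 8.24 and 8.60 at day 6 (-1.79), and in WT 10.29 and 9.92 at day 9, against 8.04 and 7.76 at day 6 (2.21, adjusted p = 0.0429). The difference between the day changes was -4.00 (SE 0.44, adjusted p = 2.51e-04). Tnfsf10 had WT signals of 9.73 and 9.49 at day 9, against 8.63 and 8.57 at day 6 (1.01), and a difference between day changes of -3.15. Pim1, a survival kinase induced by cytokines, had 8.29 and 8.15 in KO at day 9, against 9.27 and 9.35 at day 6 (-1.09), and in WT 10.25 and 10.08 at day 9, against 9.24 and 9.31 at day 6 (0.89). Its difference was -1.98 (SE 0.15, adjusted p = 1.61e-05). Gsta4, which detoxifies products of lipid oxidation, went the other way, with 11.66 and 11.58 in KO at day 9, against 10.72 and 10.43 at day 6 (1.04) and WT signals of 8.21 and 8.98 at day 9, against 9.91 and 9.93 at day 6 (-1.33). Dio1, which activates thyroid hormone, had 5.48 and 5.44 in KO at day 9, against 6.59 and 6.79 at day 6 (-1.23) and 8.99 and 8.99 in WT at day 9, against 8.09 and 8.21 at day 6. At day 6 the genotypes lay close together in Ido1 and Pim1, and at day 9 they were apart. The WT calls also depended on single arrays: 0 to 18 genes were called under the refits, 0 of them without either WT array of day 12 or with the smooth muscle covariate. Saa1 was called in WT although all its signals of days 9 and 6 lay under the background limit.

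**Figure D5:**
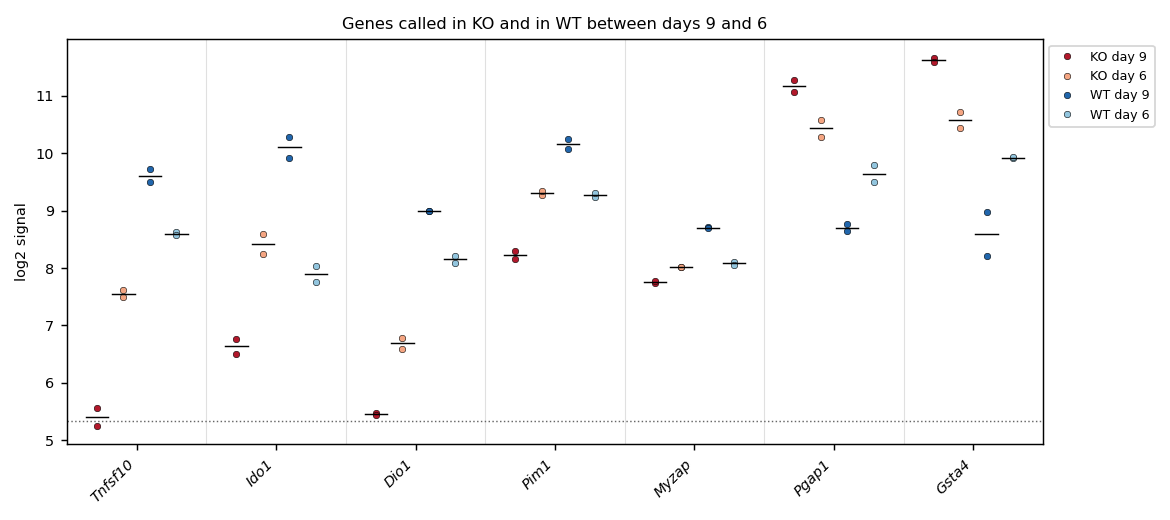
Log2 signal on each array (points) and group mean (bar) for the 7 genes called in both genotypes between days 9 and 6; the dotted line is the background limit of 5.33. In Ido1 the KO points of day 9 lie at 6.50 and 6.77, under those of day 6, and the WT points of day 9 at 10.29 and 9.92, above those of day 6.

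The test of the difference between day changes named 12 genes, most of them from the lists of largest KO changes. The positive ones were Anxa10 at 5.78 (SE 0.22, adjusted p = 3.30e-07), Slc40a1 at 3.89, Slc7a11 at 3.69, Sprr1a at 3.51, Fam162a at 3.46 and Grem1 at 3.18. Slc40a1 also differed in WT by 0.78 (adjusted p = 0.119), which made its difference smaller than its KO change. Sprr1a had WT signals of 8.13 and 9.24 at day 9, against 10.60 and 9.72 at day 6, so part of its difference came from WT. The negative ones were Slc34a2 at -5.66 (SE 0.29, adjusted p = 1.98e-06), Enpp7 at -5.12, Ugt2a3 at -4.83, Lct at -4.51, Aspa at -4.30 and Olfm4 at -4.29. By list, this test called 16 falls and 0 rises for brush border enzymes and 23 and 0 for transporters. It called 16 rises and 1 fall for regenerative genes. Far fewer members than in KO alone passed it in the ribosomal, macrophage, neutrophil, mitosis and matrix lists. The median SE of the difference was 0.16, against 0.11 for the KO change.

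KO arrays of day 12 entered the fit only through the shared spread. In most of the few genes given here they stood near or beyond the levels of day 9. Lct had 5.73 and 6.29 in KO at day 12, Slc34a2 4.79 and 5.09, Anxa10 11.95 and 11.62 and Slc40a1 11.74 and 11.54. Olfm4 had 5.95 and 5.77 at day 12. Exceptions were Ugt2a3 with 7.0 and 8.27 and Saa3 with 6.98 and 6.48, closer to KO at day 6 than at day 9 in Saa3 and between the days in Ugt2a3. The brush border mean was 8.92 and 9.44 at day 12. Smooth muscle means were 9.31 and 8.85 at that day, above those of day 9. Other lists lay nearer to day 6. The clock mean was 7.55 and 7.74 in KO at day 12, against 7.02 and 7.14 at day 9 and 7.50 and 7.54 at day 6. That of p53 targets was 7.71 and 7.81, against 7.50 and 7.55 at day 9 and 7.74 and 7.71 at day 6.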

How the data were processed

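RNA of whole jejunum was hybridised to 12 one-colour arrays, 1 per mouse, in 6 groups of 2. The log2 signals were used as deposited by the authors, with no renormalisation; how they were background-corrected and normalised is not stated per the file headers or the labels, and limma and R 3.5 appear, without a stated role, in the submitters' processing notes. Array medians ran from 5.95 to 6.02. Of 35556 probe sets, 21789 carried 1 gene symbol in the platform annotation, 1621 several and 12146 none. For the 999 symbols with several probe sets the probe set brightest on average across all 12 arrays stood for the gene, which left 19938 genes, 19856 of them with an Entrez number in RefSeq. Arrays carry no read depth, and their number limits the precision.

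A group-means model over all 12 arrays was fitted with limma 3.58.1 in R 4.3.3 (lmFit and eBayes, residual degrees of freedom 6, prior 5.23), and p-values were adjusted by Benjamini-Hochberg over all genes. The contrasts were KO day 9 minus day 6, WT day 9 minus day 6, and their difference. On simulated data in 5 runs, the KO comparison recovered 68.4% of the 1.5-fold changes put in. It recovered 98.5% of the 2-fold and 99.4% of the 4-fold changes, and 5.1% of its calls were false. The simulated noise was independent between genes and few genes were changed. Shared variation such as that of muscle was absent, so these rates need not hold for the real arrays. A permutation test of 2 against 2 arrays cannot give a p under 0.333, so none was run.

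The named genes are the targeted gene, the 12 largest rises and 12 largest falls in KO among called genes whose groups do not overlap, the 6 largest positive and 6 largest negative differences between day changes, the 4 smallest p in WT, up to 4 genes called in both genotypes with opposite signs, and up to 4 called members with the largest change in each list. Outside the lists, symbols of predicted genes and clones, small RNAs and chemoreceptors were passed over. Members that were not called, well-known markers, members that moved against their list and further called members were chosen after their values were seen. The 62 lists hold 1649 measured genes, and 162 of 1954 entries matched no measured gene. With 1776 memberships in the lists, some genes count in more than 1 list. The comparison and the lists were chosen with earlier results of these data known. Alternatives changed the scaling, the filter on dim genes, the choice of probe set, the arrays in the fit, the prior and the covariates, or left out 1 array. Promoter windows came from RefSeq tables on GRCm38.p6.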

Additional observations from a re-analysis of the deposited data

Results flagged for a closer look

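The change from day 6 to day 9 differed between KO and WT for 2534 genes by limma's test of the difference itself, adjusted over all genes, and the 16 of them that the naming rule picked are given here. Values are KO day change minus WT day change on the log2 scale. The positive ones were Anxa10 at 5.78, Slc40a1 at 3.89, Slc7a11 at 3.69, Sprr1a at 3.51, Fam162a at 3.46, Grem1 at 3.18 and Gsta4 at 2.37. The negative ones were Slc34a2 at -5.66, Enpp7 at -5.12, Ugt2a3 at -4.83, Lct at -4.51, Aspa at -4.30, Olfm4 at -4.29, Ido1 at -4.00, Tnfsf10 at -3.15 and Pim1 at -1.98. The call on Grem1 was lost with a trend in the prior and with the smooth muscle covariate. Groups of 2 are too small to test for an outlying array.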

How the results depend on the processing

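All 328 genes called in KO among those chosen by rule or named in the text kept their direction in all 21 refits, and 222 kept their call in every one. The smooth muscle covariate ended 92 of these calls, more than any other refit. Leaving out 1 array could not have turned a direction, since the KO groups of all 4890 called genes did not overlap. Direction in those refits is therefore no check. The number of genes called in KO day 9 against day 6 was 2105 with the smooth muscle mean as covariate, and 2315 to 5633 when 1 array was left out. The low end came without KO day 9 replicate 1. For WT the count was 7 without dim genes, 1 with only days 6 and 9, 2 with only the arrays of 1 genotype, 0 with the smooth muscle covariate (1881 genes had an unadjusted p under 0.05) and 0 to 18 when 1 array was left out. The difference between the day changes was called for 552 genes with the covariate and for 1387 to 3315 when 1 array was left out. With the replicate block, 4933 genes were called in KO, 4 in WT and 2582 for the difference, and nothing in the labels pairs mice of the same number, whose deviations from the group means had a correlation of -0.15 between KO at day 9 and KO at day 6. Of the called genes named in the text, Acot2, Atf4, Bmp4, Clu, Dnajb9, Duox2, Elf3, Flna, Gip, Gzmb, Hnf4a, Hyou1, Mmp12, Mr1, Myzap, Nlrc5, Nr1h4, Nts, Reg3b, Tagln, Tap1, Tff3 and Tnf lost their KO call in 5 or more of the 21 refits. Values that did not pass could change sign over the refits, as for Ms4a1 (-0.92 to 1.65) and Cdk1 (-0.18 to 0.19), and so could list medians, as for antigen presentation (-0.26 to 0.12) and bile acid genes (-0.24 to 0.11). Over the refits without 1 KO array of day 9 or 6, small list counts moved too. Rises ranged from 0 to 1 for identity factors, from 0 to 2 for centriole genes, p53 targets and cholesterol synthesis, from 0 to 3 for hormone cells and ribosome assembly, from 1 to 2 for P450s, goblet, Notch and apolipoprotein L genes, from 1 to 3 for mast cell, death receptor and endothelial genes and from 2 to 4 for crypt base markers, and numbered 1 for fatty acid oxidation and conjugation. Falls ranged from 0 to 1 for phosphatases and annexins, from 0 to 2 for tuft cells, from 1 to 2 for NRF2 targets and B cells, from 1 to 3 for EGF pathway and protease genes, from 1 to 4 for Notch, from 1 to 5 for ribosome assembly, from 2 to 3 for iron genes and from 2 to 4 for interleukin 1 genes. The median of a list moved by more than the spread between replicate arrays in 121 of 1302 cases. The cause of these shifts was not tested. Of the genes, 13843 had a mean over the 12 arrays above the background limit, and changes of dimmer genes are compressed.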

Other observations

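Some lists that match no single pathway of the jejunum are given as values. Of 30 genes tied to Crohn's disease susceptibility in humans, the disease named by the study, 3 rose, 5 fell and 22 did not pass (median log2 change 0.06 in KO and 0.09 in WT). Their shares, 10.0% higher and 16.7% lower, were near those of all genes, 10.0% and 14.5%. The 5 falls became 3 without KO day 9 replicate 1 or without either KO array of day 6. Of 17 apolipoprotein L and lipid remodelling genes, 3 rose, 5 fell and 9 did not pass (median log2 change 0.08 in KO and 0.25 in WT). Of 7 erythroid and platelet genes, 0 rose, 0 fell and 7 did not pass. Of 24 genes of pancreas, liver, fat and stomach, 6 rose, 0 fell and 18 did not pass, and 0 rose without KO day 9 replicate 1, without either KO array of day 6 or with the muscle covariate.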
